A study of Mus musculus with 12 samples.

Results

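Axon guidance ligands and their receptors were examined in mouse embryonic stem (ES) cells turned towards a neural fate. They were taken as the genes whose symbol names a semaphorin of class 3 to 7, a plexin, a neuropilin, an ephrin, an Eph receptor, a Slit, a Robo, a netrin, an Unc5 receptor or Dcc. The rule found 68 genes, read by 151 probe sets, among 18193 genes with a probe set of their own. They comprised 35 ligands and 33 receptors: 20 semaphorins with 9 plexins and 2 neuropilins, 8 ephrins with 13 Eph receptors, 3 Slits with 4 Robos, and 4 netrins with 5 netrin receptors.

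A growing axon steers by cues that neighbouring cells secrete or display, and receptors on its tip read them as attraction or repulsion. Slits are secreted repellents read by Robo receptors. Netrins attract through Dcc and repel through Unc5 receptors. Ephrins are bound to the cell surface and signal by contact to Eph receptor tyrosine kinases, with A-type ephrins anchored by a lipid and B-type ephrins spanning the membrane. Class 3 semaphorins are secreted and act through neuropilins with plexins, whereas most other classes are membrane-bound and bind plexins directly. In the embryonic brain the same families also set tissue boundaries, guide migrating cells and shape blood vessels.

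Affymetrix arrays measured the RNA of 12 samples from a pair of ES cell lines, both grown as a monolayer in N2B27 medium. In the rtTA-Dmrt5 line doxycycline (Dox) induces Dmrt5, another name of the transcription factor gene Dmrta2, through the rtTA activator, and the rtTA line is its parent. The 6 groups of 2 arrays each were rtTA-Dmrt5 at day 7 with Dox and without, rtTA-Dmrt5 at day 9 with Dox and without, and rtTA at day 7 with Dox and without. Dox was added at day 5 of differentiation. No clone is named for either line in the sources used here. Nothing in the labels sets replicates apart as cultures of their own, and p-values reflect the spread between these samples only, which may be technical.

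The deposited values are log2 signals centred per probe set on the 12-array median, and they therefore give differences between arrays and no level. The number of arrays limits their precision. Dmrta2 goes against its label. Its values were -0.14 and -0.95 in rtTA-Dmrt5 arrays labelled +Dox at day 7, against 1.91 and 1.85 in those labelled -Dox. At day 9 they were -1.07 and -1.92, against 1.07 and 1.16, and in rtTA 0.41 and -0.28, against -0.22 and 0.14. The sources used here do not say whether that probe set reads the transgene, so groups are named by their labels and every Dox direction below rests on them. Hybridisation spike-ins were lower without overlap in every group labelled +Dox, averaging -0.81 against 0.10 in -Dox at day 9, -0.19 against 0.15 at day 7, and -0.17 against 0.14 in rtTA. The Actb 3′ minus 5′ signal, a sign of RNA quality, averaged 0.21 at day 9 with Dox and -0.02 without, -0.04 and 0.06 in rtTA-Dmrt5 at day 7 with and without Dox, and -0.22 and -0.32 in rtTA. The part of these differences in the results was not tested. All 10 neural progenitor markers of a list had a recovered log2 level of at least 8, a reading of brightness explained with the processing, as had 14 of 17 pan-neuronal markers. Among the guidance genes 19 reached a level of 8, 41 lay between 4 and 8, 7 between 2 and 4, and Epha6 alone was under 2.

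Of the Slits and EphA receptors called on both days, the promoters of 4 are shown here and that of Epha5 is not. The 4 were chosen because Slit3 and Slit2 moved in opposite directions and Epha3 and Epha10 together. Each runs from 250 bases before to 50 bases after the start of the gene in RefSeq (build GRCm38.p6), 5′ to 3′ on the gene's strand, with CG dinucleotides in capitals. Slit3 lies on the plus strand at chr11:35121206-35121505, Slit2 on the plus strand at chr5:47982905-47983204, Epha3 on the minus strand at chr16:63864126-63864425 and Epha10 on the plus strand at chr4:124881535-124881834.
Slit3: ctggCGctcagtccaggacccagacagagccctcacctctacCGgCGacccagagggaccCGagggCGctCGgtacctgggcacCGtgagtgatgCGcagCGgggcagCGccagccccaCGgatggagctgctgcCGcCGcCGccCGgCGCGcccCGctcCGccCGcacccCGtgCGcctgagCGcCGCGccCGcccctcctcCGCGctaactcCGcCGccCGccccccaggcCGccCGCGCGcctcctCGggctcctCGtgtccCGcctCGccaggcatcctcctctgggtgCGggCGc
Slit2: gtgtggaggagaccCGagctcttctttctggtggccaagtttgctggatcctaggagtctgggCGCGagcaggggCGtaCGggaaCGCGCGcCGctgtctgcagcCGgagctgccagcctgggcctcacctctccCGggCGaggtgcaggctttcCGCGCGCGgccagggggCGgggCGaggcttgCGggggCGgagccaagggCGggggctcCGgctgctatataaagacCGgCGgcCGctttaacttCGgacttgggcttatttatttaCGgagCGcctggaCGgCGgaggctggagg
Epha3: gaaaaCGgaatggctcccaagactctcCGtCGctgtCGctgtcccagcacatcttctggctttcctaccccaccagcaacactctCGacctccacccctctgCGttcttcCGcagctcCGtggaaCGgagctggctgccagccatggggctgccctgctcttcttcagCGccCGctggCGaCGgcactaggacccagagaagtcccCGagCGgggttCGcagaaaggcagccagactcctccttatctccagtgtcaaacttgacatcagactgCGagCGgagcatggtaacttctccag
Epha10: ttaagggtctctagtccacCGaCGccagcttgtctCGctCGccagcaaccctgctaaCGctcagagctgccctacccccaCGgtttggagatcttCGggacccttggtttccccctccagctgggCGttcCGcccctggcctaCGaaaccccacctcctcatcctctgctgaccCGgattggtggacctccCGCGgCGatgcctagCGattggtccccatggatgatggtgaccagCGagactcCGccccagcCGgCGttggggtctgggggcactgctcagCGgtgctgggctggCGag
The Slit3 window held 78.3% G and C and 41 CG dinucleotides, that of Slit2 68.0% and 30, that of Epha10 65.3% and 21, and that of Epha3 60.7% and 18. RefSeq promoters were found for 58 of the 68 genes, 74 promoters in all, and their median G and C content was 64.2%, against 58.3% for 18009 promoters of measured genes and 52.7% for all 32851. The letters AATGTAT, the core of the motif known for Dmrt factors, were searched on both strands as the only motif. They occurred in 1 of the 74 promoters, that of Epha1, which is 1.35%, against 1.33% of the promoters of measured genes and 2.69% of all. None of the 4 windows shown held them. These windows say nothing of more distant sites.

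**Figure D1:**
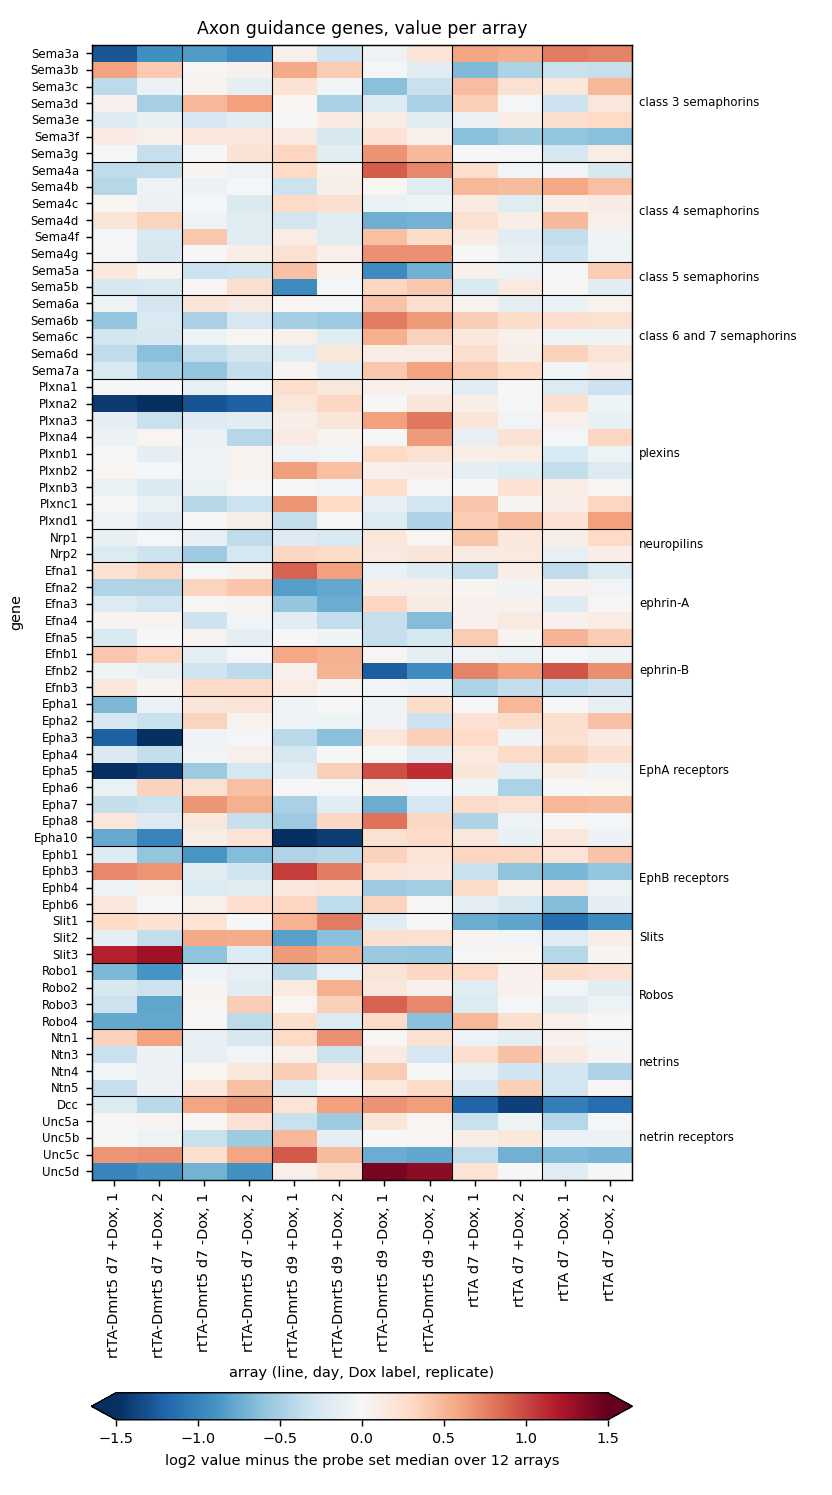
Centred log2 value of each of the 68 axon guidance genes (rows, by family) in each of the 12 arrays (columns, 2 per group), red for above and blue for below the median over all arrays, with the colour scale saturating at 1.5. The EphA rows Epha3, Epha5 and Epha10 are dark blue in the day 7 arrays labelled +Dox, and Unc5d is darkest red in the day 9 arrays labelled -Dox.

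The first comparison asked how guidance genes responded to Dox in rtTA-Dmrt5 cells at day 7. EphA receptors fell: 5 of 9 passed the threshold of adjusted p 0.05 and 0 rose. The Slits split, with Slit3 3.06-fold higher and Slit2 1.77-fold lower, and the Slit receptors Robo1 and Robo3 and the netrin receptor Dcc fell, while the ligands Ntn1, Efnb1 and Sema3b and the receptor Ephb3 rose. No plexin or neuropilin and no semaphorin of class 4 to 7 passed. In all, 15 of the 68 genes passed (22.1%), 5 higher and 10 lower, where 6.94% of all 18193 genes did, 3.09% higher and 3.85% lower. Of the 68, 4 also changed at least 2-fold, against 1.8% of all genes. Among receptors 1 of 33 rose and 8 fell, and among ligands 4 of 35 rose and 2 fell. The median log2 change was -0.14 over the 68 genes and 0.01 over all genes. Dim genes pass less often, so the shares were also taken at a recovered level of at least 4, where they were 15 of 60 guidance genes and 8.87% of 13252 genes. In bulk samples fewer cells of a type and less RNA per cell cannot be told apart.

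The day 7 count depended on single arrays. Dropping replicate 1 or 2 labelled +Dox left 12 or 9 calls, and dropping replicate 1 or 2 labelled -Dox left 9 or 8. The calls over all genes became 637 or 514 and 611 or 551 in these fits, against 1263 with every array, and leaving out an array also lowers the power of the test. Slit3, Ephb3, Slit2, Efna2, Dcc, Epha3 and Epha10 kept their calls in all 4 of these fits. Epha5 lost its call without replicate 2 of the arrays labelled -Dox (adjusted p = 0.0545) and Epha7 without replicate 1 of them (adjusted p = 0.0509). Robo3 lost its call without replicate 2 of either group. Robo1 and Ntn1 lost theirs without either array labelled -Dox or replicate 2 of those labelled +Dox, and Efnb1, Sema3b and Epha2 without any of the 4 arrays.

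At day 9, after 4 days of Dox, more guidance genes differed by the label, and 7 of the 14 families held changes in both directions. The netrin receptor Unc5c, the ephrin Efnb2, Slit3 and Sema5a rose by 2.75-, 2.58-, 2.23- and 2.12-fold. Epha10 fell 3.46-fold, and Unc5d and Sema6b each 2.36-fold. Of the 5 semaphorins of classes 6 and 7, 4 fell. In all 35 of the 68 genes passed (51.5%), 15 higher and 20 lower, where 28.2% of all genes did, 16.9% higher and 11.3% lower. Of the 68, 7 also changed at least 2-fold, against 4.4% of all genes. At a recovered level of at least 4 the shares were 58.3% of the guidance genes and 35.4% of all genes, and the median log2 change was -0.06 over the guidance genes and 0.01 over all. The spike-ins and the Actb signal differed between these arrays too.

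Of the day 9 calls, 11 of 15 rises and 10 of 20 falls were kept when each of the 4 arrays was left out in turn, and the count then ran from 24 to 31, while calls over all genes ran from 3061 to 4651. The rises kept were Unc5c, Efnb2, Slit3, Sema5a, Efna1, Slit1, Ephb3, Ephb4, Efnb1, Sema3b and Plxnb2. The falls kept were Epha10, Unc5d, Sema6b, Slit2, Epha5, Efna2, Efna3, Ephb1, Plxna3 and Sema4g. Calls of Plxnb1, Sema4c and Sema6a were lost without any of the 4 arrays, and those of Epha3 and Sema7a without replicate 2 of either group. Plxnc1 and Robo1 lost theirs without +Dox replicate 1 or -Dox replicate 2, Sema3c without replicate 1 of either group, and Sema4a and Sema6c without -Dox replicate 1. Robo3 and Sema5b passed only with +Dox replicate 1 and both arrays labelled -Dox, and Sema4d and Unc5a only with +Dox replicate 2 and both of those. Both days called Efnb1, Ephb3, Sema3b and Slit3 higher and Efna2, Epha10, Epha3, Epha5, Robo1, Robo3 and Slit2 lower, which is 11 of the 15 genes called at day 7 and of the 35 called at day 9. No guidance gene was called in opposite directions. Neither count was taken over all genes, so they show nothing particular to the guidance genes. The 2 responses share no arrays in their group means. Each gene's standard error came from the same fit over all arrays and was equal on both days. A gene with little spread could therefore pass more easily on both days, so the shared calls are not independent.

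**Figure D2:**
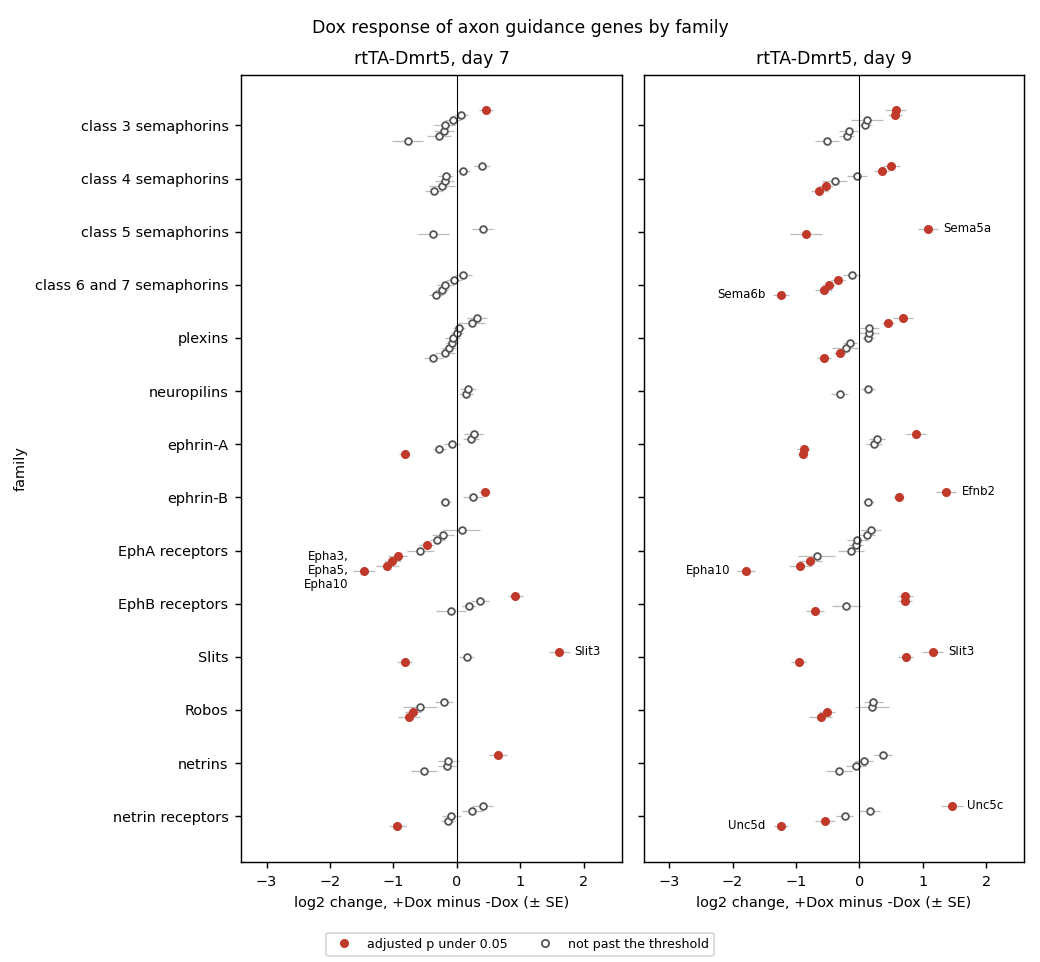
Log2 change with Dox (x axis, arrays labelled +Dox minus -Dox, with its standard error) of each axon guidance gene in rtTA-Dmrt5 cells at day 7 and day 9, by family, with genes past adjusted p 0.05 filled and those changed at least 2-fold named. At day 7 the 5 filled EphA receptors lie left of 0; at day 9 the 4 filled semaphorins of classes 6 and 7 do.

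Slit3, a secreted Robo ligand with 1 probe set, had the largest rise among the guidance genes at day 7. Its values were 1.17 and 1.27 in rtTA-Dmrt5 arrays labelled +Dox at day 7, against -0.60 and -0.19 in those labelled -Dox. At day 9 they were 0.64 and 0.55 with Dox, against -0.55 and -0.57 without it. The arrays of the 2 treatments did not overlap on either day, and the log2 changes were 1.61 ± 0.16 (SE, n = 2 arrays a group here and throughout; adjusted p = 0.000397) and 1.16 ± 0.16 (adjusted p = 0.000899). In the parental rtTA line the same gene read -0.03 and 0.03 in arrays labelled +Dox, against -0.43 and 0.04 in those labelled -Dox, which overlap.

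Slit2, the midline repellent best known from the floor plate, went the other way. It read -0.15 and -0.37 in rtTA-Dmrt5 arrays labelled +Dox at day 7, against 0.57 and 0.56 in those labelled -Dox. The day 9 values were -0.81 and -0.62 with Dox, against 0.25 and 0.22 without. The falls of 0.82 ± 0.12 and 0.96 ± 0.12 on the log2 scale passed with adjusted p = 0.00245 and 0.000425, and the parental arrays, at 0.04 and -0.04 with Dox and -0.18 and 0.09 without, overlapped. Slit1 passed at day 9, higher by 0.73 ± 0.12 (adjusted p = 0.00206), and not at day 7, where its change was 0.15 ± 0.12 (adjusted p = 0.547). The difference between the days was not called for Slit1.

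Among the Robos, Robo1, a receptor of Slits on many axons and migrating neurons, read -0.68 and -0.89 in rtTA-Dmrt5 arrays labelled +Dox at day 7, against -0.06 and -0.13 in those labelled -Dox. Robo3, which commissural axons need to cross the midline, read -0.32 and -0.78, against 0.03 and 0.37. Neither gene's treatments overlapped. The falls were 0.69 ± 0.13 (adjusted p = 0.0120) and 0.75 ± 0.18 (adjusted p = 0.0337) at day 7, and 0.51 ± 0.13 (adjusted p = 0.0162) and 0.61 ± 0.18 (adjusted p = 0.0288) at day 9. All of Robo1's 3 probe sets and both of Robo3's had negative changes on both days. Robo2, and Robo4, which is known mainly from blood vessel cells, did not pass in either response. The mean of the 4 Robos was -0.50 and -0.69 in day 7 arrays labelled +Dox and 0.00 and -0.08 in those labelled -Dox.

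In the netrin system 1 ligand and 1 receptor passed at day 7. Ntn1, the floor plate attractant, read 0.34 and 0.61 in rtTA-Dmrt5 arrays labelled +Dox at day 7, against -0.13 and -0.24 in those labelled -Dox, a change of 0.66 ± 0.14 (adjusted p = 0.0235). That rise rests on 1 of its 2 probe sets, since they read 1.52 and -0.21 at day 7 and 1.29 and -0.55 at day 9. At day 9 the gene's change was 0.37 ± 0.14 (adjusted p = 0.0833). Dcc, its attractive receptor, read -0.21 and -0.40 with Dox at day 7, against 0.60 and 0.67 without, and fell by 0.94 ± 0.14 (adjusted p = 0.00298). The day 9 values of Dcc were 0.21 and 0.62 with Dox, against 0.67 and 0.62 without, which nearly touch, and the change of -0.23 ± 0.14 did not pass (adjusted p = 0.240). The difference between the days was not called for Ntn1 (adjusted p = 0.492) or Dcc (adjusted p = 0.0944).

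The Unc5 receptors, through which netrins repel, passed in the day 9 response and not at day 7, and in both directions. Unc5c read 0.92 and 0.48 in day 9 arrays labelled +Dox, against -0.74 and -0.78 in those labelled -Dox, a rise of 1.46 ± 0.17 (adjusted p = 0.000322) with both probe sets higher. Unc5d, which is also a receptor of the adhesion protein Flrt2, read 0.07 and 0.22 with Dox, against 1.42 and 1.35 without, and fell by 1.24 ± 0.11 (adjusted p = 0.000101). For both genes the treatments did not overlap at day 9. At day 7 the changes were 0.24 ± 0.17 for Unc5c (adjusted p = 0.479) and -0.14 ± 0.11 for Unc5d (adjusted p = 0.546). Unc5a fell at day 9 by 0.54 ± 0.15 (adjusted p = 0.0254), a call lost without either array labelled -Dox or without replicate 2 of those labelled +Dox, and Unc5b did not pass.

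EphA receptors bind A-type ephrins and are known for mapping axons onto targets by position. Epha3 read -1.23 and -1.76 in rtTA-Dmrt5 arrays labelled +Dox at day 7, against -0.05 and -0.01 in those labelled -Dox. Its day 9 values were -0.40 and -0.63 with Dox, against 0.17 and 0.35 without. The fall was 1.46 ± 0.18 at day 7 (adjusted p = 0.00110), read by the 3 probe sets in its highest level class, which read -0.97, -1.67 and -1.75, and 0.78 ± 0.18 at day 9 (adjusted p = 0.0102). The treatments did not overlap on either day, and the parental arrays lay between -0.05 and 0.30.

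Epha5 read -1.58 and -1.43 with Dox at day 7, against -0.55 and -0.26 without. At day 9 it read -0.15 and 0.36, against 0.96 and 1.11. It fell on both days, by 1.10 ± 0.18 (adjusted p = 0.00551) and 0.93 ± 0.18 (adjusted p = 0.00427), although its values rose between the days under both treatments. Epha10, a member of the family whose kinase domain lacks catalytic activity, read -0.76 and -0.99 with Dox at day 7, against 0.09 and 0.20 without. On day 9 it read -1.63 and -1.43, against 0.23 and 0.28. Its day 7 fall was 1.02 ± 0.14 (adjusted p = 0.00186). The day 9 fall of 1.79 ± 0.14 (adjusted p = 3.64e-05) was the largest among the guidance genes, and both rest on its only probe set.

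Epha7, best known for its part in cortical and retinal maps, passed at day 7 and not at day 9. It read -0.35 and -0.32 in day 7 arrays labelled +Dox, against 0.66 and 0.53 in arrays labelled -Dox, a fall of 0.93 ± 0.15 (adjusted p = 0.00577). At day 9 it read -0.48 and -0.17 with Dox, against -0.74 and -0.27 without, and the change of 0.18 ± 0.15 did not pass (adjusted p = 0.424). Epha2 fell by 0.48 ± 0.12 at day 7 (adjusted p = 0.0497). The other 4 EphA genes, Epha1, Epha4, Epha6 and Epha8, passed in neither response, with changes from -0.57 to 0.07 at day 7 and from -0.68 to -0.03 at day 9. Averaged over all 9 EphA genes, the values were -0.55 and -0.57 in day 7 arrays labelled +Dox, against 0.11 and 0.10 in those labelled -Dox, and -0.40 and -0.18 at day 9 with Dox, against 0.16 and 0.17 without.

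**Figure D3:**
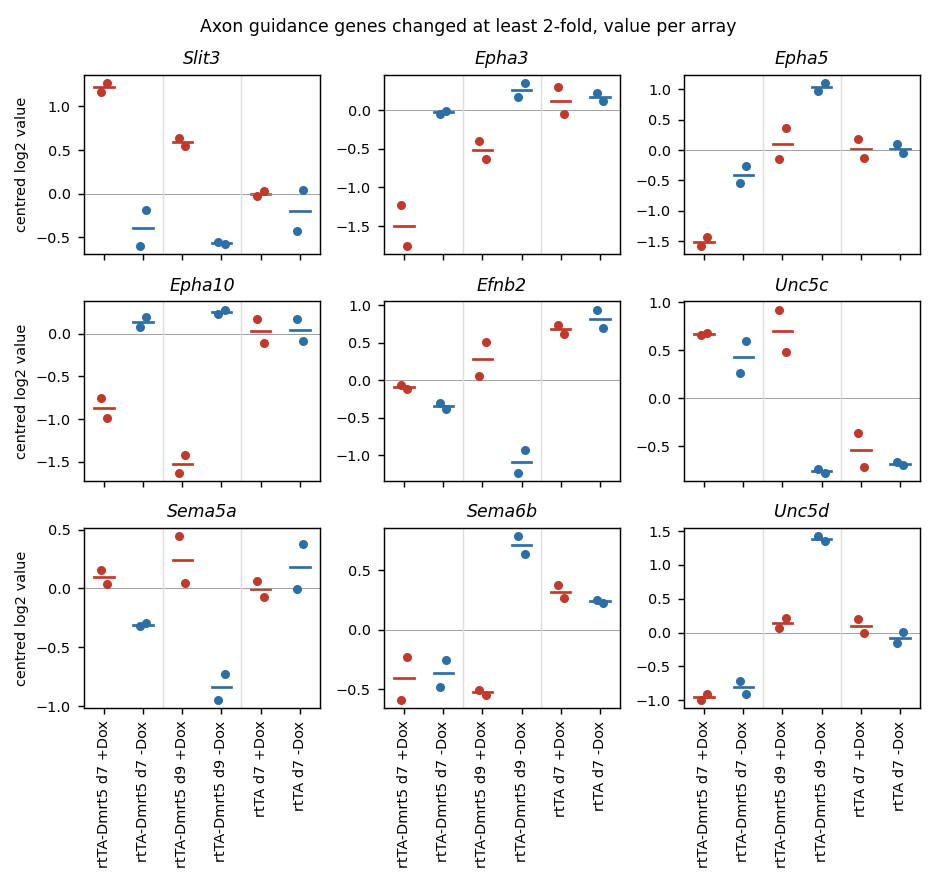
Centred log2 value per array (points) and group mean (bars) of the 9 axon guidance genes changed at least 2-fold in a Dox response of rtTA-Dmrt5 cells, with arrays labelled +Dox in red and -Dox in blue. Slit3 and Epha10 separate the treatments on both days of rtTA-Dmrt5 and not in rtTA, while Unc5c, Unc5d, Sema6b and Efnb2 separate widely at day 9.

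Among EphB receptors, which bind B-type ephrins, Ephb3 rose on both days. It read 0.73 and 0.66 with Dox at day 7, against -0.16 and -0.30 without, and 1.03 and 0.76 at day 9, against 0.19 and 0.16. The changes were 0.92 ± 0.12 (adjusted p = 0.00165) and 0.72 ± 0.12 (adjusted p = 0.00213), with no overlap on either day. Ephb4, known as a receptor of veins, read 0.16 and 0.21 with Dox at day 9, against -0.54 and -0.51 without, and rose by 0.71 ± 0.11 (adjusted p = 0.00134). Ephb1 fell at day 9 by 0.71 ± 0.14 (adjusted p = 0.00501), with -0.45 and -0.42 in arrays labelled +Dox and 0.34 and 0.20 in those labelled -Dox.

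The ephrins split by member. Efnb2, the B-type ephrin of arteries and of segment boundaries, read 0.06 and 0.51 with Dox at day 9, against -1.24 and -0.93 without, and rose by 1.37 ± 0.16 (adjusted p = 0.000325). That value comes from its brightest probe set, and the other 3 read 0.51, 0.36 and -0.03, so that the mean of all gave 0.55. Efnb1, which sets boundaries in the skull and neural crest, rose by 0.44 ± 0.09 at day 7 (adjusted p = 0.0169) and had a day 9 change of 0.62 ± 0.09 (adjusted p = 0.000966). Of the A-type ephrins, Efna2 read -0.45 and -0.46 with Dox at day 7, against 0.33 and 0.41 without, and -0.82 and -0.77 at day 9, against 0.10 and 0.09. Its replicates lay close together, and the falls of 0.82 ± 0.08 and 0.89 ± 0.08 had adjusted p = 0.000348 and 0.000106. At day 9 Efna3 read -0.58 and -0.75 with Dox, against 0.31 and 0.12 without, and fell by 0.88 ± 0.11 (adjusted p = 0.000391). Efna1 read 0.88 and 0.62, against -0.10 and -0.19, and rose by 0.89 ± 0.15 (adjusted p = 0.00240), so A-type ephrins separated the treatments in both directions. Efna4 and Efna5 passed on neither day.

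**Figure D4:**
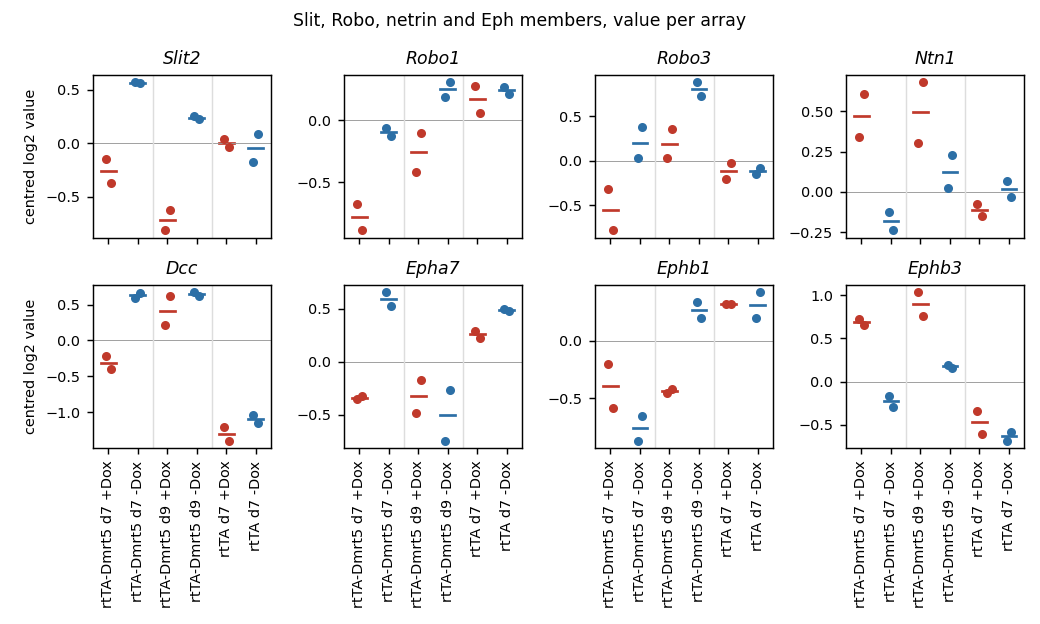
Centred log2 value per array (points) and group mean (bars) of 8 Slit, Robo, netrin, Dcc and Eph genes, with arrays labelled +Dox in red and -Dox in blue. Slit2 lies lower and Ephb3 higher with Dox on both days of rtTA-Dmrt5, and Dcc lies near -1.2 in all rtTA arrays.

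At day 7 Sema3b was the only semaphorin of 20 that passed, higher by 0.46 ± 0.11 (adjusted p = 0.0379), where 6.94% of all genes passed. At day 9 12 of 20 semaphorins passed, 5 higher and 7 lower, where 16.9% of all genes were called higher and 11.3% lower. Sema5a, a transmembrane semaphorin with thrombospondin repeats, read 0.44 and 0.05 with Dox, against -0.95 and -0.72 without, and rose by 1.08 ± 0.16 (adjusted p = 0.00110). Its brighter probe sets read 1.62 and 0.54 and the 2 dimmer ones 0.01 and -0.12, and the mean of all its probe sets gave 0.51. Sema6b, a transmembrane ligand of A-type plexins, read -0.51 and -0.54, against 0.78 and 0.64, and fell by 1.24 ± 0.13 (adjusted p = 0.000193). Neither gene's treatments overlapped. Sema3b, Sema3c, Sema4c and Sema4d also rose, by 0.35 to 0.57, although the 2 dimmer probe sets of Sema4d read -0.25 and -0.31. Sema7a, a lipid-anchored semaphorin, read 0.04 and -0.16 with Dox, against 0.40 and 0.60 without. Besides Sema6b, Sema5b, Sema4a, Sema7a, Sema4g, Sema6c and Sema6a fell, with changes from -0.84 to -0.34. Sema5b stood at -0.94 and -0.02 in the 2 arrays labelled +Dox, so its call rests on the first: without it or without either array labelled -Dox the call was lost.

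Of the 11 semaphorin receptors, 0 passed at day 7 and 4 at day 9, where 6.94% and 28.2% of all genes did. Plxnc1, the receptor of Sema7a, read 0.67 and 0.30 with Dox at day 9, against -0.12 and -0.28 without, and rose by 0.69 ± 0.16 (adjusted p = 0.00988) and Plxnb2 by 0.45 ± 0.10 (adjusted p = 0.00720). Plxna3 fell by 0.56 ± 0.11 (adjusted p = 0.00578) and Plxnb1, a receptor of Sema4d, by 0.31 ± 0.09 (adjusted p = 0.0295). The neuropilins Nrp1 and Nrp2 did not pass on either day, with changes between -0.31 and 0.18. Over both days, 29 of the 68 genes passed in neither response of rtTA-Dmrt5 cells. That count was not taken over all genes, so it shows nothing particular to the guidance genes.

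Family means over the 6 groups set these responses side by side. They are means of centred values, so they show shifts of a family and no level. The 4 EphB receptors averaged 0.16 and 0.03 in day 7 arrays labelled +Dox, against -0.29 and -0.22 in those labelled -Dox, while at day 9 the treatments lay closer, at 0.27 and 0.04 against 0.08 and -0.03. The 3 B-type ephrins averaged 0.25 and 0.36 at day 9 with Dox, against -0.42 and -0.39 without. The 5 semaphorins of classes 6 and 7 averaged -0.11 and -0.15 at day 9 with Dox, against 0.45 and 0.39 without. The treatments of these last families did not overlap. In rtTA at day 7, EphA receptors averaged 0.09 and 0.05 with Dox, against 0.18 and 0.12 without, Robos 0.10 and 0.08, against 0.04 and -0.01, and classes 6 and 7 semaphorins 0.24 and 0.12, against 0.08 and 0.10. Rises and falls within a family cancel in such a mean: the 9 plexins, with 2 rises and 2 falls at day 9, averaged 0.17 and 0.15 with Dox there, against 0.11 and 0.14 without.

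Dox alone was examined in the parental rtTA line at day 7. There are no rtTA arrays at day 9, so the day 9 response and its difference from day 7 have no such control. None of the 68 guidance genes passed, and limma called 0.0% of all 18193 genes in that comparison. At an unadjusted p under 0.05 there were 2 guidance genes, Plxnb1 with 0.25 ± 0.09 and Sema7a with 0.32 ± 0.13 (both adjusted p = 0.931). Changes ran from -0.29 for Epha6 to 0.34 for Robo4, and the median was 0.02. When the replicate number entered as a block, or with replicate 2 labelled -Dox left out, 1 gene of all passed, not a guidance gene.

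The difference between the 2 lines in the day 7 response was tested as an interaction. It passed for 6 of the 68 genes (8.82%), 2 more positive and 4 more negative, where 2.81% of all genes passed, 0.857% and 1.95%. Slit3 (1.42 ± 0.23, adjusted p = 0.0125) and Ephb3 (0.76 ± 0.17, adjusted p = 0.0488) responded more positively in rtTA-Dmrt5, and Epha3 (-1.41 ± 0.25, adjusted p = 0.0174), Epha10 (-1.01 ± 0.19, adjusted p = 0.0252), Slit2 (-0.87 ± 0.16, adjusted p = 0.0236) and Efna2 (-0.81 ± 0.12, adjusted p = 0.00635) more negatively. Their own changes in rtTA were 0.19, 0.16, -0.05, -0.01, 0.05 and -0.01 in that order. These genes also have large changes in rtTA-Dmrt5, and the test uses the same arrays. Only Efna2 kept the call when each of the 8 arrays was left out in turn, and Slit3 lost it only without replicate 2 of the rtTA-Dmrt5 arrays labelled +Dox. Over these fits the count ran from 2 to 5. It was 2 without either rtTA-Dmrt5 array labelled -Dox or without replicate 2 of those labelled +Dox, and 3 without parental -Dox replicate 2 or parental +Dox replicate 1.

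A second interaction asked which genes responded to Dox differently at day 9 than at day 7. It passed for 6 genes (8.82%), where 2.41% of all did, 1.42% more positive and 0.995% more negative. They were Unc5c (1.22 ± 0.24, adjusted p = 0.0361), Epha7 (1.11 ± 0.22, adjusted p = 0.0358) and Efnb2 (1.11 ± 0.22, adjusted p = 0.0398) more positive at day 9, and Sema6b (-1.19 ± 0.18, adjusted p = 0.0137), Unc5d (-1.10 ± 0.16, adjusted p = 0.0122) and Ephb1 (-1.07 ± 0.20, adjusted p = 0.0281) more negative. For each of these 6 genes, arrays labelled -Dox differed more between the days than arrays labelled +Dox did. From day 7 to day 9 Unc5c changed by 0.03 with Dox, against -1.19 without, Efnb2 by 0.37 against -0.74, Sema6b by -0.12 against 1.08, Ephb1 by -0.04 against 1.03, and Unc5d by 1.09 against 2.19. Epha7 changed by 0.01 with Dox and by -1.10 without, and was low in all groups of rtTA-Dmrt5 but the day 7 arrays labelled -Dox. No call was kept in every fit that left out an array: the count ran from 0, without replicate 1 of the day 9 arrays labelled -Dox, to 5. It was 1 or 2 without day 7 -Dox replicate 1 or 2, 2 or 1 without day 7 +Dox replicate 1 or 2, and 3 when the replicate number entered as a block.

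Time by itself was read in rtTA-Dmrt5 arrays labelled -Dox, as day 9 minus day 7. The largest rise was in Unc5d, which read 1.42 and 1.35 at day 9, against -0.71 and -0.90 at day 7, a 4.57-fold difference (2.19 ± 0.11, adjusted p = 1.12e-05). Epha5 (1.44 ± 0.18) and Plxna2 (1.35 ± 0.15), a receptor component for class 3 and class 6 semaphorins, rose too. Unc5c (-1.19 ± 0.17) and Epha7 (-1.10 ± 0.15) fell most. In all 19 guidance genes passed (27.9%), 13 higher and 6 lower, where 14.9% of all genes did, 7.85% higher and 7.09% lower, and 6 of 20 semaphorins rose. Without replicate 1 of the day 7 arrays the count was 12. Of 17 pan-neuronal markers 14 were higher at day 9, both here and with Dox, and of 10 ES-cell markers 9.

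In arrays labelled +Dox, 20 guidance genes differed between the days (29.4%), 14 higher and 6 lower at day 9, where 16.2% of all genes did, 10.0% higher and 6.19% lower. Receptors made up 11 of the 14 rises. Plxna2 read 0.16 and 0.31 at day 9, against -1.44 and -1.82 at day 7, and rose by 1.87 ± 0.15 (adjusted p = 0.000113). Epha5 (1.61 ± 0.18), Unc5d (1.09 ± 0.11), Sema3a (0.99 ± 0.15) and Epha3 (0.98 ± 0.18) followed, and 3 of 4 Robos rose, Robo3 (0.74, although 1 of its probe sets read -0.41), Robo2 (0.62) and Robo1 (0.52). All 3 Robos lost the call without replicate 2 of the day 7 arrays, and likewise without replicate 2 of the day 9 arrays. Epha10 (-0.65 ± 0.14) and Slit3 (-0.62 ± 0.16) fell. None of the 6 falls held in every fit that left out an array, and 0 passed without replicate 1 of the day 7 arrays. Slit3 lost its call without any of the 4 arrays, and Epha10 without replicate 1 of either day. The count was 10 or 8 without replicate 1 or 2 of the day 7 arrays and 10 when only the arrays compared were fitted. These day comparisons share their arrays with the Dox responses above.

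The lines already differed without Dox at day 7, which bears on every comparison between them. Dcc read 0.60 and 0.67 in rtTA-Dmrt5, against -1.04 and -1.14 in rtTA, and was 3.30-fold higher (1.72 ± 0.14, adjusted p = 2.76e-05). Slit1 (1.15 ± 0.12) and Unc5c (1.11 ± 0.17) were also at least 2-fold higher. Sema3a, the classic collapsing signal for growth cones, read -0.85 and -0.94 in rtTA-Dmrt5, against 0.77 and 0.75 in rtTA, and was lower by 1.66 ± 0.15 on the log2 scale (adjusted p = 7.17e-05). Plxna2 (-1.35 ± 0.15), Efnb2 (-1.17 ± 0.16) and Ephb1 (-1.08 ± 0.14) were lower as well. In all 26 guidance genes passed (38.2%), 10 higher and 16 lower, where 28.6% of all genes did, 15.2% higher and 13.4% lower, and none of the 9 EphA receptors or 4 Robos was among them. Without rtTA-Dmrt5 replicate 1 the count was 14, and without replicate 2 of either line 16. Signs of RNA quality and cell type differed between the same arrays. The Actb 3′ minus 5′ signal was 0.07 and 0.05 in rtTA-Dmrt5, against -0.37 and -0.28 in rtTA. Of 10 ES-cell markers 9 were lower and 1 higher, with a median of -2.20, of 17 pan-neuronal markers 8 were lower and 2 higher, and of 8 endoderm markers 4 were higher. Their part in the line differences was not tested.

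With Dox, 35 guidance genes differed between the lines (51.5%), 10 higher and 25 lower in rtTA-Dmrt5, where 24.6% of all genes did, 13.7% higher and 10.9% lower. Of the 9 EphA receptors 7 were lower and 0 higher, Epha3 by 1.62 ± 0.18 (adjusted p = 0.000147) and Epha5 by 1.53 ± 0.18 (adjusted p = 0.000205) on the log2 scale. Epha3, Epha5 and Epha10 kept the call without each of the 4 arrays, Epha1, Epha2, Epha4 and Epha7 lost it without rtTA replicate 2, and Epha7 lost it in all 4 fits. In these arrays 16 of 17 pan-neuronal markers were lower and 1 higher, with a median of -1.02, 9 of 10 ES-cell markers were lower and 7 of 8 endoderm markers higher, and their part was not tested. Slit3 (1.22 ± 0.16), Unc5c (1.21 ± 0.17), Ephb3 (1.16 ± 0.12), Sema3b (1.07 ± 0.11) and Slit1 (1.03 ± 0.12) were at least 2-fold higher. The lowest again included Plxna2 (-1.68 ± 0.15) and Sema3a (-1.67 ± 0.15). The 2 line comparisons have no array in common in their group means, but they too take each gene's standard error from the same fit. The first shares its rtTA-Dmrt5 arrays with the day 7 response's arrays labelled -Dox and the second with those labelled +Dox. Over all comparisons, 11 of the 68 genes passed in none: Efna4, Epha6, Epha8, Ephb6, Ntn5, Plxna1, Plxna4, Plxnb3, Sema3g, Sema4f and Unc5b. The same count was not taken over all genes, so it shows nothing particular to these families.

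Other genes of axon guidance were read from 3 lists, against the shares of all genes called, 3.09% higher and 3.85% lower at day 7, and 16.9% higher and 11.3% lower at day 9. Of 13 guidance adhesion molecules, 0 rose and 5 fell with Dox at day 7 in rtTA-Dmrt5, led by Nrcam (-0.91), and 2 rose and 6 fell at day 9, with Cntn6 (2.84, at a recovered level under 4) and Dscam (-1.05) at the ends and medians of -0.34 and -0.46. Of 18 other cues and receptors, 3 rose and 7 fell at day 7 and 5 rose and 6 fell at day 9. Among them Cdon, a co-receptor of Sonic hedgehog, rose by 1.18 and 2.38, and its relative Boc fell by 0.56 and 0.86. The chemokine Cxcl12 rose by 0.99 and 1.85, while Rgmb, a ligand of the Dcc relative neogenin, fell by 1.31 and 0.60. Of 25 measured signalling proteins downstream of these receptors, 3 rose and 3 fell at day 7 and 5 rose and 6 fell at day 9. Mical2, a relative of the plexin effector Mical1, rose by 1.83 at day 9. In the Slit-Robo GAP family Srgap3 fell by 0.67 at day 7 and 0.61 at day 9, while Srgap1 rose by 0.49 at day 7. None of these lists held a gene that passed in rtTA, where 0.0% of all genes did, so any list would have held none.

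Markers of cell types moved in the same arrays, and the counts stand beside 6.94% of all genes called at day 7 and 28.2% at day 9. Of 17 pan-neuronal markers, 0 rose and 11 fell with Dox at day 7, and 0 rose and 12 fell at day 9. The list averaged -0.90 and -1.05 in day 7 arrays labelled +Dox, against -0.26 and -0.28 in those labelled -Dox, and -0.27 and -0.20 at day 9 with Dox, against 0.51 and 0.55 without. Its part in the falls of EphA receptors, Robos, Dcc and the class 6 and 7 semaphorins was not tested. Of 10 measured epithelium and placode markers 6 rose at day 7 and 7 at day 9, where 1 fell, of 10 ES-cell markers 6 and then 7 rose, and of 8 endoderm markers 1 and then 6 rose. Their part in the rises was not tested. Neural progenitor markers were mixed, with 2 higher and 3 lower of 10 at day 7 and 1 and 4 at day 9. Of 8 endothelial markers, which bear on Efnb2, Ephb4 and Robo4, 6 had a recovered level under 4, and only Tek passed, higher by 0.72 at day 7 and 1.51 at day 9. Of 10 mesenchyme markers 1 rose and 3 fell at day 7 and 3 rose and 1 fell at day 9, and of 8 neural crest markers 0 and 1, then 3 and 2.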

How the data were processed

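RNA of 12 samples was measured, per the labels from 5 ng of total RNA amplified and labelled with biotin. Per the submitters' processing notes, the authors applied RMA, with no version stated. The deposited values are taken as log2, the scale RMA is defined on, and as larger for more RNA. Each of the 45101 probe sets is centred on its median, a step no source mentions. The spacing of these single-precision values shows the power of 2 that holds the original log2 level. In 5000 simulated probe sets this gave the right class for 97.2%.

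Probe sets were named from the platform annotation: 34945 had 1 gene symbol, 932 several and 9160 none, besides 64 controls. Each of 18193 genes was read as the average over those probe sets that share its brightest class, with no filter. limma 3.58.1 (R 4.3.3) fitted a mean per group over all 12 arrays, with 6 residual and 3.59 prior degrees of freedom, and Benjamini-Hochberg adjustment over all genes in each of 9 comparisons. Tested on simulated data for the day 7 response, it recovered 74 of 100 genes given a log2 change of 1 and 38 of 100 given 0.5, and called 4 of 17993 unchanged genes. For the day 9 response the counts were 72, 22 and 5. The simulated noise was independent between genes and arrays, so it held no shift shared by a whole array. Far fewer genes were changed than the data called, which makes the adjusted threshold stricter than in the data.

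The genes and lists were chosen with earlier results of these data known. Values per array are given for guidance genes called with a log2 size of at least 1 in a Dox response, and for others that the text turns on; a called one may be named, and its probe sets are named where 1 opposes the gene by over 0.3. Same-numbered replicates deviated together with correlations from -0.05 to 0.19, so the numbers were not taken as pairs. Python 3.11.15 with pandas 2.3.3 read the table, and matplotlib 3.10.9 drew the plots.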

Additional observations from a re-analysis of the deposited data

Results flagged for a closer look

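A difference in the Dox response between the lines at day 7 was tested as an interaction. It passed for 6 of the 68 genes, where 2.81% of all genes did, and most of these calls depended on single arrays. The difference was 1.42 for Slit3, 0.76 for Ephb3, -1.41 for Epha3, -1.01 for Epha10, -0.87 for Slit2 and -0.81 for Efna2. It is given as the response of rtTA-Dmrt5 minus that of rtTA on the log2 scale.

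A difference in the rtTA-Dmrt5 response between the days was tested the same way as day 9 minus day 7. It passed for another 6 genes, where 2.41% of all genes did, and each of these calls depended on single arrays. The difference was 1.22 for Unc5c, 1.11 for Epha7, 1.11 for Efnb2, -1.19 for Sema6b, -1.10 for Unc5d and -1.07 for Ephb1.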

How the results depend on the processing

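The 11 changes of at least 2-fold in the rtTA-Dmrt5 Dox responses kept their direction and adjusted p under 0.05 in the settings other than left-out arrays. These settings were the mean of all probe sets, a recovered level of at least 4, array medians set to 0, only the arrays compared, and the replicate block. With the mean of all probe sets, Efnb2 (0.55) and Sema5a (0.51) at day 9 and Epha5 (-0.87) at day 7 fell short of 2-fold. With each array left out all 11 kept their direction, and Epha5 at day 7 (-0.96) lost its call without replicate 2 of the arrays labelled -Dox. The count of guidance genes stayed within 1.5 times in every comparison under the settings other than left-out arrays, and with every probe set tested on its own, with these exceptions. The difference between days, 6 genes, became 2 with only the arrays compared and 3 with the replicate block, and day 9 minus day 7 with Dox, 20 genes, became 10 with only the arrays compared. With an array left out, the counts ran from 8 to 12 and 24 to 31 for the Dox responses at day 7 and day 9, 0 in rtTA, 2 to 5 and 0 to 5 for the differences between lines and days, 12 to 14 and 8 to 15 between days without and with Dox, and 14 to 18 and 26 to 29 between lines without and with Dox. Counts over all genes moved as well. With an array left out they ran from 514 to 637 (1263 with every array) and 3061 to 4651 (5126) for the Dox responses at day 7 and day 9, 201 to 384 (511) and 78 to 576 (439) for the differences between lines and days, 1203 to 1571 (2718) and 1193 to 2439 (2947) between days without and with Dox, and 3076 to 3831 (5206) and 2868 to 3504 (4467) between lines without and with Dox. For the difference between days, 439 genes became 280 with the mean of all probe sets, 687 at a level of at least 4, 246 with only the arrays compared and 114 with the replicate block. For the difference between lines 511 became 321 with the block, and with only the arrays compared 5126 became 3176 for the day 9 response and 2947 became 1398 for day 9 minus day 7 with Dox. The cause was not tested. Background correction and slide or scan blocks were not run, since only normalized values and no scan labels were used. In the simulations, at 2 arrays a group, changes of 0.5 were often missed.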
